A study of Mus musculus with 4 samples.

Results

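The angiopoietin and Tie receptor axis was read in sorted lung endothelial cells of mice with transverse aortic constriction. It comprises 6 of the 17915 genes in the deposited table, chosen by symbol: the receptors Tek and Tie1, the phosphatase gene Ptprb, the ligands Angpt1 and Angpt2, and the matrix protein gene Svep1. All mice shared one genotype, Cdh5-CreER with aSMA-LSL-Dre and NR1, all received tamoxifen 5 times, and all were studied 6 weeks after the constriction. Cdh5-CreER is a recombinase induced by tamoxifen and driven by the VE-cadherin gene. The Dre allele at the alpha smooth muscle actin locus switches the mark of an endothelial cell from ZsGreen to tdTomato once that locus has been active, so a tdTomato+ cell carries a record of past and possibly brief activity. The 2 libraries of tdTomato+ cells were compared with the 2 libraries of ZsGreen+ cells, and no library of unoperated mice was analysed here. Age and sex are not given in the labels, and neither is whether the libraries labelled as biological replicates came from separate mice, so p-values measure only the spread between these libraries.

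TEK, also called TIE2, is a receptor tyrosine kinase of endothelial cells that is bound by the angiopoietins. ANGPT1, made mainly by cells around the vessel and carried by platelets, activates the receptor and favours a quiet, tight endothelium. ANGPT2, made by endothelial cells themselves and stored for release, can oppose ANGPT1 or activate the receptor weakly, depending on context. TIE1 is a related receptor that binds no angiopoietin firmly and modulates TEK, while the phosphatase VE-PTP, the product of Ptprb, removes phosphate from TEK and VE-cadherin. SVEP1 is a large secreted adhesion protein, a ligand of TIE1, and is needed for lymphatic vessels. Signals from TEK pass through phosphoinositide 3-kinase and AKT to keep the transcription factor FOXO1, an activator of Angpt2, out of the nucleus.

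The libraries held between 17050673 and 18574737 estimated counts over all genes of the deposited table. The 12 pan-endothelial markers, among them Pecam1 and Cdh5, were all read and summed to between 13425 and 18094 CPM (reads scaled for depth with edgeR's TMM factors). Acta2, the recorded gene, stood at 304 and 528 CPM in the tdTomato+ libraries against 87.6 and 82.9 CPM in the ZsGreen+ libraries (log2 fold change 2.29, SE 0.29, edgeR adjusted p = 0.0432). edgeR called 40 of 13177 genes tested at an adjusted p under 0.05, or 0.304% of them, 22 higher and 18 lower in tdTomato+ cells.

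Tie1, Ptprb, Tek and Angpt2 were abundant, and Angpt1 and Svep1 were near the limit of detection, in both kinds of cell. The first 4 stood above 35 TPM in every library, whereas the other 2 stood below 0.5 TPM in every library. TPM, the authors' transcript abundance, is scaled for gene length and is used here to compare levels between genes. Tie1 was the highest of the 6 in every library, with a median of 365 TPM, and then came Ptprb with 146, Tek with 135 and Angpt2 with 60.3 TPM. Ptprb and Tek were neighbours whose ranges, 103 to 179 TPM and 82.5 to 145 TPM, overlapped. Tek and Angpt2 overlapped as well, since Angpt2 ran from 39.3 to 98.2 TPM. Tie1, from 321 to 404 TPM, overlapped with none of the others. Angpt1, from 0.02 to 0.3 TPM, and Svep1, from 0.02 to 0.36 TPM, could not be put in order.

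**Figure D1:**
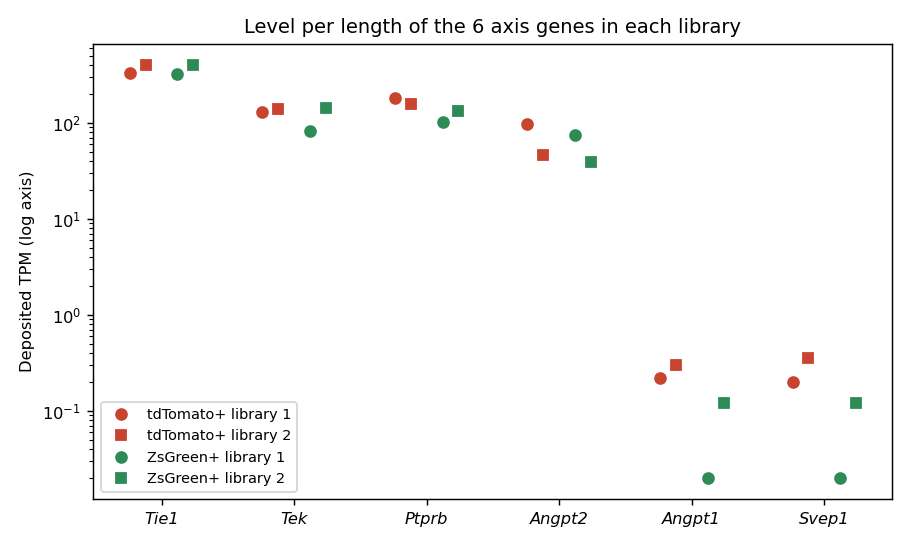
Deposited TPM (log axis) of the 6 genes, 1 point per library; red marks tdTomato+ and green ZsGreen+ cells, circles library 1 and squares library 2. Of the 6, 4 lie between 39.3 and 404 TPM, while Angpt1 and Svep1 lie between 0.02 and 0.36 TPM.

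No gene of the axis passed edgeR's test between tdTomato+ and ZsGreen+ cells. Of the 6, 0 were called, against 0.304% of all genes tested, and 0 had an unadjusted p under 0.05, against 8.77% of all genes. DESeq2, also named in the submitters' processing notes, called none of the 6 either, although it called 2.44% of the genes for which it gave an adjusted p. The median log2 fold change of the 6 was 0.26, and that of all genes tested was -0.01. Both tdTomato+ libraries lay above both ZsGreen+ libraries in CPM for 3 of the 6, Ptprb, Angpt1 and Svep1, an order that 19.9% of all genes showed, and none of the 6 showed the opposite order, which 18.2% of all genes did. Angpt1 and Svep1 could pass the filter on low counts only with the help of the tdTomato+ libraries. Their order and the sign of their fold changes were therefore in part a condition of being tested. For this reason neither the count of 3 nor the median of 0.26 is read against the values of all genes. In simulated counts with the spread usual in these libraries for a gene's level, edgeR called 37.2% of 2-fold and 96.4% of 4-fold changes in genes of at least 5 CPM. Changes under 2-fold in the abundant members were thus mostly below what this design can call. Angpt2 differed more between libraries than most genes, with library 1 at 2.02 and 2.23 times library 2 within the groups, so these shares do not hold for it.

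**Figure D2:**
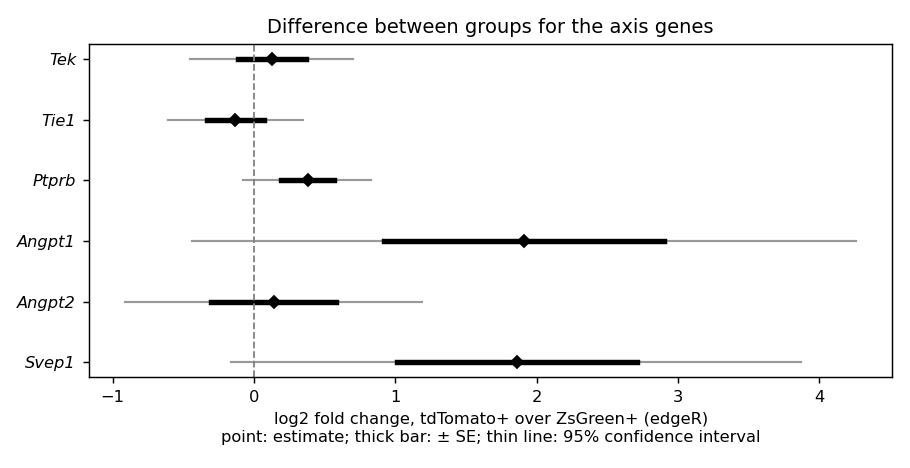
log2 fold change of tdTomato+ over ZsGreen+ cells for each gene (edgeR, 2 libraries per group), with the SE as a thick bar and the 95% confidence interval as a thin line. Every interval includes 0; the narrow ones belong to Tek, Tie1 and Ptprb and the wide ones to Angpt1, with an upper end of 4.26, and Svep1, with one of 3.87.

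Among the receptors, Tek (NCBI Gene 21687) lies on the forward strand of chromosome 4 at 94739086 to 94874976 in GRCm38. It stood at 356 and 411 CPM in the tdTomato+ libraries against 283 and 420 CPM in the ZsGreen+ libraries. The ZsGreen+ libraries held both the lowest and the highest value, so the tdTomato+ libraries lay between them. The log2 fold change was 0.13 (SE 0.24, 95% confidence interval -0.45 to 0.70, edgeR adjusted p = 0.949). Its sign rested on 1 library, since it was -0.13 without ZsGreen+ replicate 1 (edgeR adjusted p = 0.845).

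Tie1 (NCBI Gene 21846) lies on the reverse strand of the same chromosome, at 118471191 to 118489849. It stood at 758 and 943 CPM in the tdTomato+ libraries against 900 and 960 CPM in the ZsGreen+ libraries, and the groups overlapped. The log2 fold change was -0.13 (SE 0.20, 95% confidence interval -0.61 to 0.35, edgeR adjusted p = 0.938). On the deposited TPM scale the group means were 365 ± 43.5 and 362 ± 58.4 TPM (SD, n = 2 per group), and limma on log2(TPM + 1) gave a log2 fold change of 0.01, so the small difference in CPM took the other sign there. TPM moved the median of all genes it tested to 0.12 on the log2 scale. The intervals of both receptors lay within a 2-fold difference in either direction.

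The stretches of DNA around a transcript start of each receptor gene are shown because their RNAs were abundant in every library. RefSeq promoter windows of GRCm38.p6, from 250 bases before to 50 bases after a transcript start, were found for 3 of the 6 genes, Tek, Tie1 and Svep1. For Tek that start is 94739289, which lies inside the gene span given above, from 94739086. The Tek window therefore covers little of the DNA before that span. Capitals mark each match to the core bound by ETS factors, GGAA on either strand; ETS factors such as ERG and FLI1 are regulators of endothelial genes. Tek is read on the forward strand from chr4:94739039-94739338 and Tie1 on the reverse strand from chr4:118489800-118490099, both 5′ to 3′.
Tek: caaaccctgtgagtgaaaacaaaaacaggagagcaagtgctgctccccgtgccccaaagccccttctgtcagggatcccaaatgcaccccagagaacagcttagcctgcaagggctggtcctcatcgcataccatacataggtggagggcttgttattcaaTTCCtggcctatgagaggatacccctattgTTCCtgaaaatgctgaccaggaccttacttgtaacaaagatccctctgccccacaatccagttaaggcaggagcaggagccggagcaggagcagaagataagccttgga
Tie1: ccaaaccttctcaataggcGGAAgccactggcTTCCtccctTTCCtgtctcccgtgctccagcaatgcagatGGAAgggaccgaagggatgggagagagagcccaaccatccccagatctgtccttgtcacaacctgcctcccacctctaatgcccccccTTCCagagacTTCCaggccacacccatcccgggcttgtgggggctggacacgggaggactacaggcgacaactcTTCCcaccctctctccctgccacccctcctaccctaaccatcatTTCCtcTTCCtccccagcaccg
The Tie1 window held 9 matches and the Tek window 2, and the median over 32851 windows was 3. Windows with at least 9 matches made up 1.59% of all, and 96% held at least 1. The Svep1 window, of a gene near the detection limit here, held 6. AGATAA, letters bound by the factors that Gata2 and its relatives encode and searched on both strands, was found once in the Tek window and in 11.2% of all windows, and not in the other two. The TATA box letters TATAAA, also searched on both strands, occurred once in the Svep1 window, on the strand opposite to the gene. They occurred in 13.6% of all windows, and not in those of the receptors. These matches describe letters only; no binding was measured.

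Ptprb (NCBI Gene 19263), on the forward strand of chromosome 10 at 116275502 to 116389538, was the abundant member whose groups did not overlap. It stood at 1305 and 1208 CPM in the tdTomato+ libraries against 923 and 1013 CPM in the ZsGreen+ libraries. Both tdTomato+ libraries were higher, and the gap between the nearest libraries of the groups was larger than the gap within either group. The log2 fold change was 0.38 (SE 0.19, 95% confidence interval -0.08 to 0.83), and edgeR gave an unadjusted p of 0.0891 and an adjusted p of 0.678. Leaving out any 1 library kept it between 0.31 and 0.45. Per TPM of Tek, Ptprb stood at 1.4 and 1.12 in tdTomato+ cells and at 1.25 and 0.92 in ZsGreen+ cells, and these ratios overlapped. Per TPM of Tie1 it stood at 0.537 and 0.40 in tdTomato+ cells and at 0.321 and 0.33 in ZsGreen+ cells. Here the groups did not overlap, with means of 0.469 ± 0.0964 and 0.325 ± 0.00599 (SD, n = 2 per group). Ptprb by itself had that order too, as did 19.9% of all genes tested in CPM. No such share was computed for ratios, so the order is given only as a description. The ratio of Angpt2 to Tek in TPM overlapped between the groups, with tdTomato+ libraries at 0.766 and 0.327 against 0.902 and 0.272. No test is given for these ratios, since an exact two-sided permutation of 2 against 2 libraries cannot go below 0.333. Tie1 per TPM of Tek was 2.61 and 2.80 in tdTomato+ cells and 3.89 and 2.79 in ZsGreen+ cells, where ZsGreen+ replicate 1 stood alone with its low Tek.

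Of the ligands, Angpt2 (NCBI Gene 11601) was the one these cells held in quantity. It lies on the reverse strand of chromosome 8 at 18690263 to 18741562. It stood at 203 and 101 CPM in the tdTomato+ libraries against 191 and 85.5 CPM in the ZsGreen+ libraries. The libraries differed within each group far more than the groups did from each other. Library 1 was 2.02 times library 2 in tdTomato+ cells and 2.23 times library 2 in ZsGreen+ cells. Among genes of at least 5 CPM, 1.49% had a difference this large within both groups. The summed CPM of the 10 macrophage markers split the same way. The sums were 5582 and 2623 CPM in libraries 1 and 2 of tdTomato+ cells and 3116 and 649 CPM in those of ZsGreen+ cells. Plet1 and Adgre1 of the list split this way too, whereas Marco was higher in library 2 of each group. Marco went from 11.3 to 55.2 CPM between the tdTomato+ libraries and from 5 to 12.7 CPM between the ZsGreen+ libraries. None of the 10 was called or at 0 in every library. The part of macrophages in the Angpt2 values was not tested. Endothelial genes split both ways. The pan-endothelial sums were 14148 and 13425 CPM in libraries 1 and 2 of tdTomato+ cells. In those of ZsGreen+ cells they were 18094 and 14431 CPM. Cdh5 was higher in library 1, at 1803 and 1112 and at 2422 and 1469 CPM. Tek and Tie1 were higher in library 2 of each group. The log2 fold change of Angpt2 between groups was 0.14 (SE 0.44, 95% confidence interval -0.91 to 1.19, edgeR adjusted p = 0.973). It turned to -0.46 without tdTomato+ replicate 1 and to -0.33 without ZsGreen+ replicate 2. The whole span of Angpt2 lies within that of Mcph1, a gene on the opposite strand. Mcph1 stood at 18.1 and 14.5 CPM in the tdTomato+ libraries against 13.5 and 10.5 CPM in the ZsGreen+ libraries. The sources used here do not give strandedness, so reads where both genes have exons could not be told apart.

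Angpt1 (NCBI Gene 11600), on chromosome 15 with RefSeq positions 42424667 to 42676977, gave 10 and 15 reads in tdTomato+ cells and 1 and 5 reads in ZsGreen+ cells. The exact 95% Poisson intervals, which cover counting error only, were 4.8 to 18.4 and 8.4 to 24.7 reads for the first pair and 0.0253 to 5.57 and 1.62 to 11.7 reads for the second. In CPM the values were 0.55 and 0.787 against 0.0633 and 0.274. Both tdTomato+ libraries were higher, but the interval of each overlapped with that of ZsGreen+ replicate 2. The ratio of summed reads, 25 against 6 and scaled for library size, was 3.81 with an exact 95% counting interval of 1.53 to 11.4. Counting intervals treat each read as a separate molecule. The RNA was amplified with no molecular identifiers named, so they can be too narrow and are not read as support. edgeR, which also takes in the spread between libraries, gave a log2 fold change of 1.91 (SE 0.99, 95% confidence interval -0.44 to 4.26, adjusted p = 0.697). Angpt1 passed the filter on low counts only through the tdTomato+ libraries, where it is high, so a higher value there was a condition of its being tested. In TPM, Angpt2 exceeded Angpt1 by 446 and 154 times in tdTomato+ cells and by 328 times in ZsGreen+ replicate 2. In ZsGreen+ replicate 1 that ratio would rest on a single Angpt1 read.

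Svep1 (NCBI Gene 64817), on chromosome 4 with RefSeq positions 58042796 to 58206596, gave 25 and 49 reads in tdTomato+ cells and 3 and 16 reads in ZsGreen+ cells, or 1.38 and 2.57 against 0.19 and 0.876 CPM. Both tdTomato+ libraries were higher, with the exact 95% Poisson interval of tdTomato+ replicate 1, 16.2 to 36.9 reads, overlapping with that of ZsGreen+ replicate 2, 9.15 to 26 reads. The ratio of summed reads, 74 against 19, was 3.56 with an exact 95% counting interval of 2.13 to 6.25. As for Angpt1, that interval can be too narrow for amplified RNA and is not read as support. edgeR gave a log2 fold change of 1.86 (SE 0.85, 95% confidence interval -0.16 to 3.87). Its unadjusted p of 0.0659 (adjusted p = 0.616) was the smallest among the 6. Both low genes depended on the ZsGreen+ libraries. Without ZsGreen+ replicate 1 the log2 fold change was 1.17 for Svep1 and 1.27 for Angpt1, and without ZsGreen+ replicate 2 it was 3.33 and 3.26, none of them called. Without tdTomato+ replicate 2 Svep1 stood at 1.36 and without tdTomato+ replicate 1 at 2.24 on the log2 scale.

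The rows of Angpt1 and Svep1 in the deposited table may also hold reads of other transcripts. Of the 11 transcripts listed for the Angpt1 row 8 carry RNAcentral identifiers, and the row's span runs on to 42704617. GENCODE M21, also of GRCm38, places Angpt1 on the reverse strand and a noncoding antisense gene, Gm17473, on the forward strand at 42676241 to 42704616. For Svep1 4 of 5 listed transcripts carry such identifiers, the row ends at 58206636, and the noncoding Gm26889 lies on the opposite strand at 58178247 to 58206635. The table gives both rows the forward strand. The share of their reads that came from the noncoding genes cannot be told apart here.

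Markers of cells other than endothelium that can make Angpt1 or Svep1 are set beside these values. The 10 pericyte markers summed to 16.2 and 20 CPM in tdTomato+ cells and to 14.3 and 16.4 CPM in ZsGreen+ cells, and of the 8 tested 0 were called. Pdgfrb, the pericyte and fibroblast receptor for platelet-derived growth factor, stood at 5.12 and 5.67 against 2.4 and 2.57 CPM. Kcnj8, a potassium channel of pericytes, stood the other way at 0.275 and 0.472 against 1.33 and 3.83 CPM. The 8 smooth muscle markers summed to 1898 and 2645 against 1721 and 1325 CPM. Of the 8, 1 was called higher, the recorded gene Acta2 (0.167% of all genes were). Both tdTomato+ libraries lay above both ZsGreen+ libraries for 4 of them and below for 1. Over all genes 19.9% and 18.2% showed these orders. The 11 fibroblast markers summed to 470 and 646 CPM in tdTomato+ cells and to 175 and 174 CPM in ZsGreen+ cells. Fn1 led the sum, at 227 and 199 against 73.4 and 48.6 CPM. The log2 fold changes of the list ran from 0.21 to 2.49, and 1 of the 11, Fn1, was called higher (0.167% of all genes were). The 7 platelet markers summed to 25.7 and 21.2 against 37 and 17.9 CPM, and all 5 tested had log2 fold changes below 0, none called. The 6 mesothelial markers summed to 3.91 and 11.4 against 8.16 and 17.4 CPM, and their members differed in direction. Gpm6a, which led the sum, stood at 2.04 and 2.73 against 6.07 and 15.1 CPM. Msln, mesothelin, stood at 1.71 and 4.52 against 1.83 and 1.7 CPM. Upk3b gave 3 and 36 against 0 and 4 reads, Upk1b 0 and 24 against 4 and 4, and Lrrn4 0 and 18 against 0 and 2, all highest in tdTomato+ replicate 2, the library with the highest Svep1 value. The median log2 fold change of the list was -0.67 over the 2 members tested and 2.15 without the filter on low counts. No marker of these lists was at 0 in every library, and Wt1, of mesothelium, was at 0 in both ZsGreen+ libraries. The part of such cells in the Angpt1 and Svep1 values was not tested. In bulk samples like these, fewer cells of a type and less RNA per cell cannot be told apart.

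Markers of endothelial subtypes differed between the groups as well. Of the 8 lymphatic markers tested 4 were called lower in tdTomato+ cells (0.137% of all genes were), among them Thy1 at 7.32 and 9.24 against 57.6 and 71.3 CPM. The sum of the 8, led by the hyaluronan receptor gene Lyve1, was 720 and 1015 against 982 and 1282 CPM, and 1 of the 8 had a log2 fold change above 0, at 0.42. Of the 10 venous markers 3 were called higher (0.167% of all genes were). Among them was Vcam1, a leukocyte adhesion molecule, at 294 and 276 against 83.2 and 58.8 CPM. All 10 capillary markers had log2 fold changes below 0, with a median of -1.24. Both tdTomato+ libraries lay below both ZsGreen+ libraries for 7 of them, an order that 18.2% of all genes showed. Of the 10, 1 was called lower, the periaxin gene Prx. The sum of the 10, led by Plvap, was 5066 and 5439 against 7045 and 5307 CPM. The part of these subtypes in the values of the axis was not tested.

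**Figure D3:**
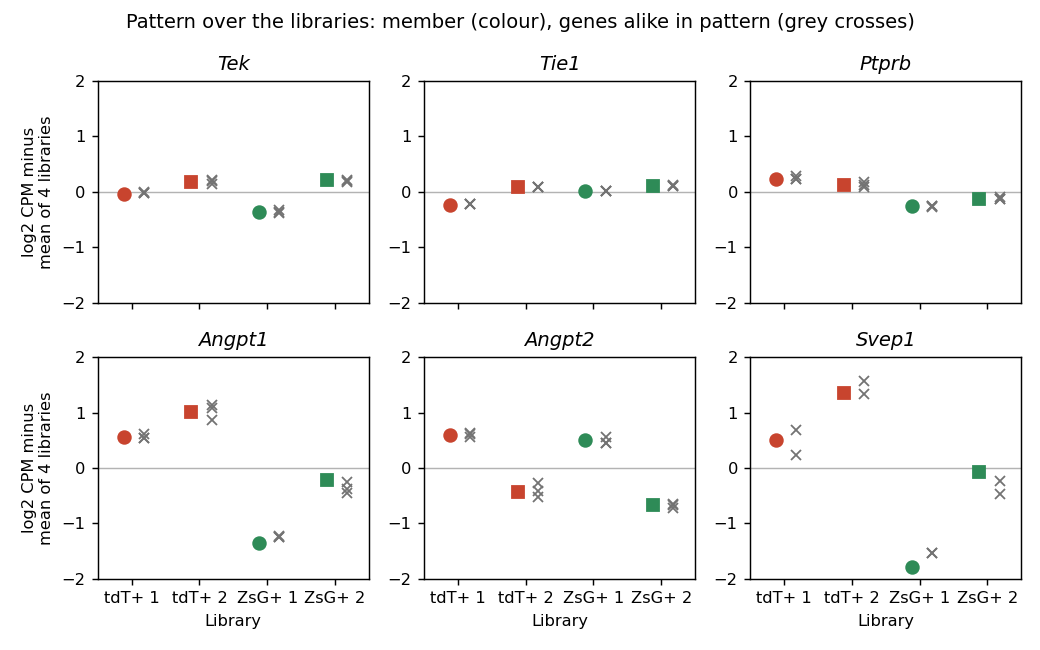
Each panel gives 1 gene of the axis as log2 CPM (prior count 2) minus its mean over the 4 libraries (colour; circles library 1, squares library 2), with genes alike in pattern as grey crosses, 2 for Svep1 and 3 for each other gene. Angpt2 is high in library 1 and low in library 2 of both groups, whereas Angpt1 and Svep1 are lowest in ZsGreen+ library 1, at -1.35 and -1.79.

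The genes closest to each member in pattern were found among 10065 other well-read genes by the root mean square difference of centred log2 CPM over the 4 libraries, given here as a description. Angpt2 was followed most closely by Gadd45a, a stress-induced gene, with a difference of 0.0294, then by Scd2, a fatty acid desaturase (0.0535), and Zc3h12a, a ribonuclease induced by inflammation (0.09). Gadd45a stood at 33.9 and 16.4 CPM in the tdTomato+ libraries against 30.1 and 13.7 CPM in the ZsGreen+ libraries, the same split between libraries 1 and 2. Tek was closest to Apbb2, Camk2g and Srfbp1 (0.0154 to 0.0264), and Tie1 to Rfxap, Ssbp2 and Lrrc32 (0.00983 to 0.0106). Ptprb was closest to Marf1, Nedd9, a focal adhesion scaffold, and C1qtnf6 (0.0163 to 0.0295).

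The low genes had looser neighbours. Angpt1 was nearest to Tll1, a metalloprotease (0.0942), Efna5, an ephrin (0.109), and Bmx, a cytoplasmic tyrosine kinase of arterial endothelium (0.148). Genes near Svep1 were Spock2, a matrix proteoglycan (0.227), and Rasgrf2, an exchange factor for Ras (0.249). With 4 libraries and 10065 genes a close match to any pattern is easily found, and the differences for the low genes hold much counting error.

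No tested gene of the lists around the receptors was called. Of the 9 surface partners listed 8 were tested and 0 were called, with a median log2 fold change of 0.22. Itga5, the fibronectin receptor subunit that can also bind angiopoietins, stood at 496 and 543 CPM in the tdTomato+ libraries against 432 and 412 CPM in the ZsGreen+ libraries (log2 fold change 0.30, SE 0.18). Mmp14, a membrane protease that can shed TEK from the cell surface, stood at 135 and 138 against 170 and 157 CPM (-0.26, SE 0.16). Adam17, another shedding protease, stood at 74.9 and 64.6 against 52.8 and 63.4 CPM. Of the 8 tested, 2 had both tdTomato+ libraries above both ZsGreen+ libraries, Itga5 and Adam17, and 2 had both below, among them Mmp14. Over all genes 19.9% and 18.2% showed these orders.

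Inside the cell, 16 of 16 listed adaptors and kinases were tested, 0 were called and the median log2 fold change was -0.05. Akt1, the kinase that links TEK to FOXO1, stood at 162 and 226 CPM in the tdTomato+ libraries against 211 and 366 CPM in the ZsGreen+ libraries (-0.57, SE 0.30, edgeR adjusted p = 0.711). Tnip2, the ABIN2 adaptor that binds TEK and curbs NF-kappaB, stood at 33.9 and 36.2 against 27.5 and 28.7 CPM (0.32, SE 0.19). Grb14, an adaptor of receptor tyrosine kinases, stood at 4.62 and 4.52 against 5.06 and 8.55 CPM (-0.58, SE 0.40).

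Foxo1 was the FOXO factor with the clearest separation of groups, at 190 and 191 CPM in the tdTomato+ libraries against 152 and 137 CPM in the ZsGreen+ libraries. Its log2 fold change was 0.40 (SE 0.17), with an edgeR unadjusted p of 0.0514 and an adjusted p of 0.572. Foxo4 stood at 37.7 and 30.1 against 51.4 and 34.7 CPM. Of the 14 FOXO factors and target genes 0 were called, against 0.304% of all genes tested. Both tdTomato+ libraries lay above both ZsGreen+ libraries for 3 of them, an order that 19.9% of all genes showed. None had both below, which 18.2% of all genes did. The median log2 fold change of the list was 0.11. Irs2, the insulin receptor substrate and a FOXO target, had the smallest p of the list, at 8.47 and 7.46 against 3.73 and 2.79 CPM (1.29, SE 0.38, edgeR adjusted p = 0.327). Angpt2, also a FOXO1 target, did not separate the groups. Its 95% confidence interval, -0.91 to 1.19 on the log2 scale, was too wide to tell whether it differed. A part of FOXO1 in these values was not tested.

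Of the 16 transcription factors listed as known regulators of endothelial genes such as Tek or Angpt2, 16 were tested and 0 were called, and their median log2 fold change was 0.00. The forkhead factor Foxc2, of lymphatic and arterial endothelium, stood at 12.5 and 8.61 CPM in the tdTomato+ libraries against 6.07 and 1.75 CPM in the ZsGreen+ libraries (1.44, SE 0.58, edgeR adjusted p = 0.544). Its relative Foxc1 stood at 6.77 and 15.2 against 4.24 and 6.19 CPM (1.07, SE 0.46). Epas1, hypoxia-inducible factor 2 alpha and the most abundant of the list, stood at 2380 and 2503 against 2556 and 3663 CPM (-0.35, SE 0.23).

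Among the relatives of the angiopoietins, 4 of 7 were tested and 0 were called. Angptl2, a secreted inflammatory relative, stood at 6.66 and 12.2 CPM in the tdTomato+ libraries against 3.86 and 4.38 CPM in the ZsGreen+ libraries (1.19, SE 0.41, edgeR adjusted p = 0.439). Angptl4, an inhibitor of lipoprotein lipase, stood at 9.79 and 36.1 against 9.49 and 22.9 CPM, and here the groups overlapped. Angptl6 stood at 2.64 and 2.26 against 3.23 and 2.96 CPM. Angpt4, the further ligand of TEK, gave 7 and 11 reads in tdTomato+ cells and 5 and 6 reads in ZsGreen+ cells and did not pass the filter on low counts. Lect2, a secreted ligand of TIE1 known from liver, gave 3 and 4 against 4 and 8 reads.

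**Figure D4:**
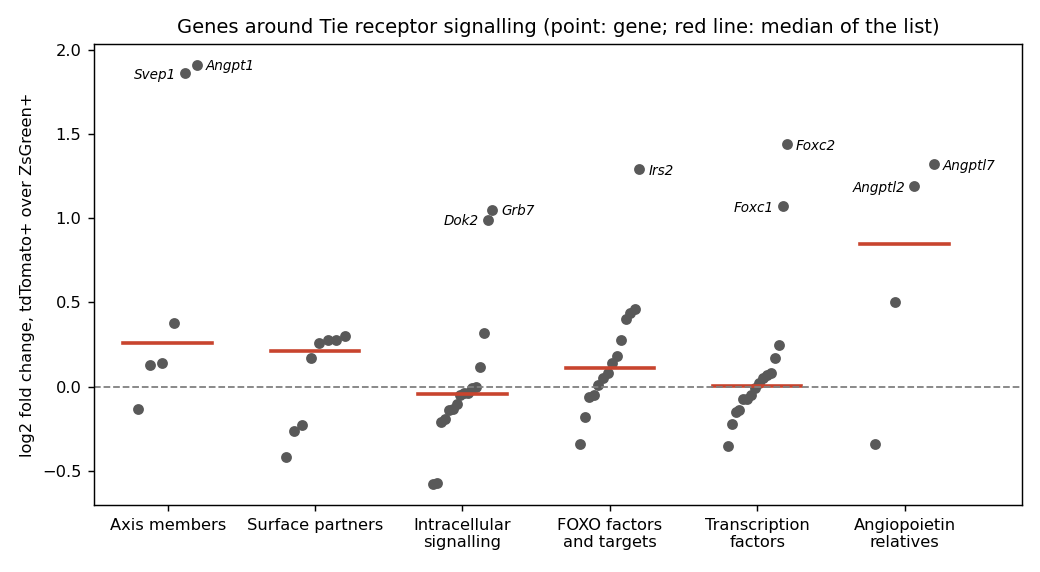
log2 fold change (tdTomato+ over ZsGreen+, edgeR) of every tested gene in the axis and in 5 lists around it; a red line marks each list's median and the genes farthest from 0 are named. No gene shown was called; the medians of the signalling, FOXO and transcription factor lists are -0.05, 0.11 and 0.00.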

How the data were processed

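RNA of sorted cells was amplified over the whole transcriptome before library preparation, per the labels' protocols, with no molecular identifiers named. The authors deposited 1 table with estimated counts, normalized counts (a signal scaled by library), FPKM and TPM per gene and library, per the file headers. RSEM 1.3.1, DESeq2 1.4.5, mm10 and GRCm38 are named in the submitters' processing notes, without their roles. The aligner is not given in the sources read here. Estimated counts, 16.2% to 17.9% of them not whole, were rounded; those of the 6 members were whole as deposited.

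edgeR 4.0.16 under R 4.3.3 compared the groups of the sample titles by a quasi-likelihood F-test (two-sided), TMM factors from 0.927 to 1.045 and filterByExpr with a minimum count of 10, and Benjamini-Hochberg adjustment over 13177 genes; a standard error is the size of the log2 fold change divided by the root of F, and confidence intervals use 6.87 degrees of freedom. The common coefficient of variation was 26.1%. Alternatives used DESeq2 1.42.0 and limma 3.58.1, other scalings and filters, and subsets of libraries. In 5 runs on simulated data edgeR called 35 of 63899 unchanged genes.

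The members and lists were chosen with earlier results of these data known. Of the 17 lists beside the members, 1 gene had no row analysed here. Named are the members, the 3 genes with the smallest p and at least 1 CPM in a list, and the 3 genes nearest to each member in pattern, of at least 5 CPM and without predicted, RIKEN, ribosomal protein or immunoglobulin names; not every such gene is printed, and 1 gene near Svep1 in pattern is not reported here. Mcph1, Cdh5, Angpt4, Lect2, Wt1, Upk3b, Upk1b, Lrrn4, Plvap, Lyve1, Angptl7, Dok2 and Grb7 were named after their values were seen. Arterial, smooth muscle, macrophage and alveolar type 2 lists had medians of 0.92, 0.66, 1.12 and 0.91 on the log2 scale. They had 1, 1, 0 and 0 members called, all higher (0.167% of all genes were).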

Additional observations from a re-analysis of the deposited data

How the results depend on the processing

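No member of the axis was called under any alternative that gave it an adjusted p. Those of Ptprb, Angpt1 and Svep1 kept a log2 fold change above 0 in all that were run, from 0.31 to 0.53 over 14, from 1.27 to 3.26 over 11 and from 1.17 to 3.33 over 12. Angpt1 had too few counts for the filter of 1 CPM in 2 libraries and, like Svep1, for the TPM filter. Both could pass the filter of the main fit only with the help of the tdTomato+ libraries. Their sign was thus in part a condition of being tested and is not read as support. The log2 fold change of Tek was -0.13 without ZsGreen+ replicate 1, with a leave-one-out range of -0.13 to 0.44. That of Angpt2 ran from -0.46 to 0.84 when 1 library was left out, below 0 without tdTomato+ replicate 1 and without ZsGreen+ replicate 2. That of Tie1 ran from -0.27 to 0.02, above 0 without tdTomato+ replicate 1, and was 0.01 with limma on log2(TPM + 1) and on log2(TPM + 0.1). The cause was not tested.

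The count of 40 called genes was 128 without a filter, 330 with DESeq2, 22 with limma on log2(TPM + 0.1), 934 with the replicate number as a block, and from 4 to 304 when 1 library was left out (17 and 4 without tdTomato+ replicates 1 and 2, 304 and 26 without ZsGreen+ replicates 1 and 2). Nothing in the labels says that a number marks shared animals; deviations of same-numbered libraries from their group means correlated at 0.455 over 13177 genes. With the replicate block Svep1 came nearest to a call (log2 fold change 2.01, edgeR adjusted p = 0.0911), and the block changed no call of a member. Of 252 list medians over the alternatives 37 moved by more than their replicate SD. Angpt1 and Svep1 had 1 to 49 reads per library, below the levels at which the test was tried on simulated counts.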
